A study of Homo sapiens with 6 samples.

Results

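The insulin-like growth factor (IGF) axis was examined through 10 genes, chosen by symbol from the 25369 genes in the files: the binding proteins IGFBP1, IGFBP2, IGFBP3, IGFBP4, IGFBP6 and IGFBP7, the receptors IGF1R, IGF2R and INSR, and the receptor adaptor IRS1. Caki2, a clear cell renal cell carcinoma (ccRCC) line with no PBRM1 protein, carried either an empty doxycycline-inducible lentiviral vector (Caki2+Vector) or the same kind of vector encoding PBRM1 (Caki2+PBRM1). Both lines were drug-selected after infection and received doxycycline at 2 µg/ml, so the agent itself was shared by the groups. Poly(A) RNA was sequenced from 3 replicates (A, B and C) of each, with no arm without doxycycline among these samples. The study calls the replicates biological, but the labels name no separate cultures or infections, and p-values measure only the spread between these samples. All values come from a single cell line, so a difference between the lines that was present before induction cannot be told apart from an effect of PBRM1.

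The ligands IGF1, IGF2 and insulin act through the receptor tyrosine kinases IGF1R and INSR, which recruit adaptors of the IRS family and signal to PI3K and AKT. IGF-binding proteins hold IGFs outside the cell, limit their access to IGF1R or release them when cleaved by proteases, and IGF2R, also the cation-independent mannose 6-phosphate receptor, carries IGF2 to lysosomes for breakdown. In the kidney, IGF-binding proteins are made by tubular, glomerular and vascular cells, and IGFBP1 and IGFBP3 are known as genes that hypoxia can induce.

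Between 7312955 and 10835355 reads per sample lay on genes. The check of the labels was clear: mean normalized counts of PBRM1 were 186.5 ± 7.4 without the construct and 2544.9 ± 127.1 with it (SD, n = 3 each), where reads of the endogenous gene and of the construct cannot be told apart. Caki2+Vector replicate A stood apart from replicates B and C, with a chi-square per degree of freedom of 3.09 and 2.84 against 1.34 between B and C and 1.19 to 1.22 among Caki2+PBRM1 samples. Of 16 renal epithelial markers, 13 passed the filter on low values, and their list summed to normalized counts of 32903 to 34870 across Caki2+Vector samples and 31885 to 32652 across the others. The list of 7 fibroblast markers summed to 104.3 to 111.5 and 102.4 to 129.8, and that of 6 endothelial markers to 2.84 to 5.67 and 5.04 to 8.0, with CDH5 and TEK at 0. The list of 7 leukocyte markers summed to 2005 to 2147 and 1909 to 1944, nearly all of it from CD68, a lysosomal protein also made by other cells, with CD3E and AIF1 at 0.

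Promoter sequence of 300 bases (250 before and 50 after the start, RefSeq, GRCh38.p14) was available for 8 of the 10 genes, with 10 promoters in all. None was available for IGFBP1 or IGFBP7. The first of the sequences printed here belongs to the binding protein that rose most in reads, the next to the receptor that fell, and the last to a receptor that rose little, each read 5′ to 3′ on the strand of the gene. Capitals mark the letters searched as cores of hypoxia response elements, ACGTG and GCGTG, on either strand (CACGT and CACGC are the same letters read from the other strand).

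IGFBP3, chr7:45921223-45921522, minus strand: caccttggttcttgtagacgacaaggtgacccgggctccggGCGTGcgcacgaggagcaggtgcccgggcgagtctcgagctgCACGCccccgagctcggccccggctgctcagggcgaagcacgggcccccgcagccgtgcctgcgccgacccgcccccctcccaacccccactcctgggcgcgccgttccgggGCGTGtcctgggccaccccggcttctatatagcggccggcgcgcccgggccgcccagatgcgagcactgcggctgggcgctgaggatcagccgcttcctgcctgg
INSR, chr19:7294365-7294664, minus strand: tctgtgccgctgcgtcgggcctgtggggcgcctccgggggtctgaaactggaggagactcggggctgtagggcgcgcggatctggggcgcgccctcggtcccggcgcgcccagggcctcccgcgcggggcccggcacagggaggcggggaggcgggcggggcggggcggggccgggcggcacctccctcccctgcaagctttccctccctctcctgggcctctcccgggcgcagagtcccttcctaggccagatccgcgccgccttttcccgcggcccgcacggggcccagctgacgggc
IGF2R, chr6:159968832-159969131, plus strand: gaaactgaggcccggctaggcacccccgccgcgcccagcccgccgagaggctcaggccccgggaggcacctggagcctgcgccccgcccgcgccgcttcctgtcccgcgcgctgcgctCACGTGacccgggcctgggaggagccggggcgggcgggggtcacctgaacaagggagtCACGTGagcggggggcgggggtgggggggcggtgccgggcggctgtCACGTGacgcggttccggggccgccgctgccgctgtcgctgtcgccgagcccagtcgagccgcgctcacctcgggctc

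The IGFBP3 promoter held GCGTG 3 times, beginning 209, 167 and 55 bases before the start, whereas the INSR promoter held neither core. In IGF2R each match lay within the palindrome CACGTG, which reads as ACGTG on both strands and occurred 3 times. Of 35116 promoters of the same length, 21.4% held ACGTG, 36.5% held GCGTG and 48.4% held either, so the 6 of 10 promoters of these genes with a core stand beside that general share. At least 3 copies of CACGTG were present in 33 promoters (0.094%), a count made after the IGF2R sequence had been seen. The insulin response element CAAAACA, in 4.92% of all promoters, was in none of the 10 promoters searched. The FOXO core GTAAACA, in 3.42%, was in that of IGFBP6 alone. Neither could be looked for in IGFBP1 or IGFBP7. Such matches are descriptions of the letters and not sites of binding.

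IGFBP1 passed the filter on low values only through its Caki2+PBRM1 samples, so its test could only find a difference, and it is left out of the counts in this paragraph. Of the other 9 genes, expression of 3 binding proteins and 2 receptors was higher in Caki2+PBRM1, and that of 1 binding protein (IGFBP2) and 1 receptor (INSR) was lower, at an adjusted p under 0.05 (limma on log2(normalized count + 1), Benjamini-Hochberg over all 13303 genes tested). A normalized count is the number of reads on a gene divided by a size factor of its sample. The same threshold was passed by 29.2% of all genes tested, 16.2% higher and 13.0% lower. The median log2 fold change was 0.40 for the 5 binding proteins without IGFBP1, 0.16 for the 3 receptors and -0.0036 for all genes. The groups did not overlap for 8 of the 9 genes, 6 higher and 2 lower in Caki2+PBRM1, nor did they for 41.7% of all genes (22.1% higher and 19.6% lower). For single genes an exact two-sided permutation test over samples cannot go below p = 0.1 with 3 against 3, and it gave that value for each of the 9 but IGFBP2.

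**Figure D1:**
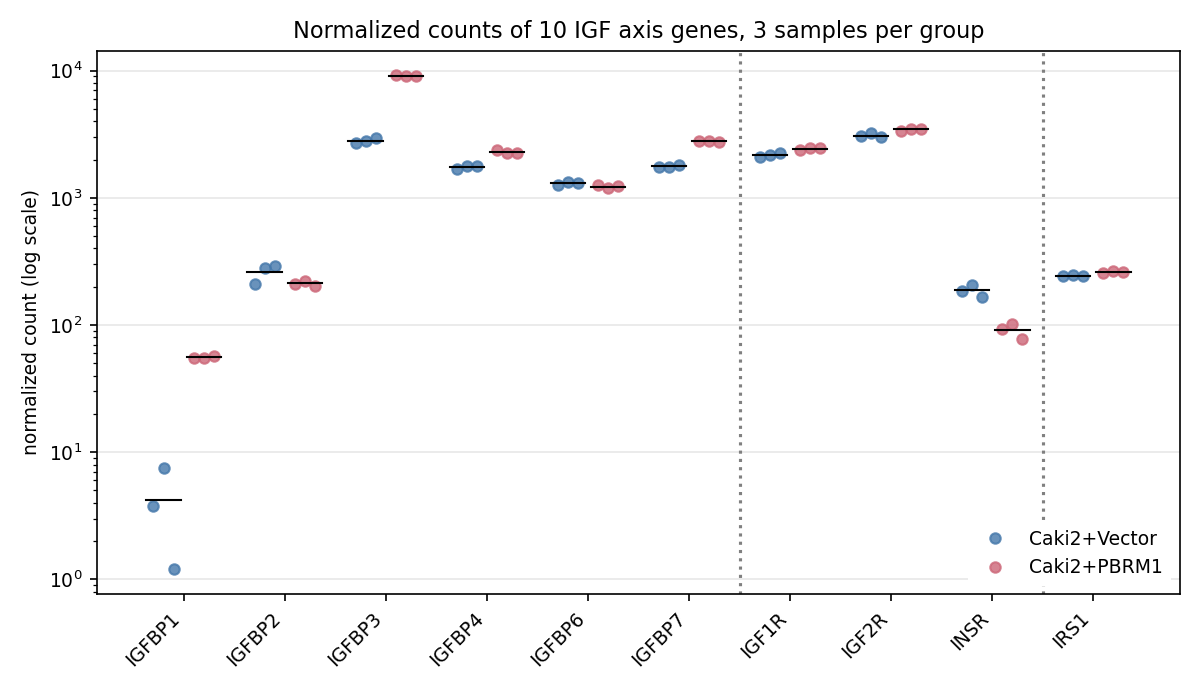
Normalized count (log scale) of each of the 10 genes in every sample, with points for replicates A, B and C from left to right, a line at each mean, and dotted lines between binding proteins, receptors and IRS1. IGFBP1, IGFBP3, IGFBP4 and IGFBP7 lie higher in Caki2+PBRM1 and INSR lies lower, and IGFBP2 is the gene whose groups overlap.

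IGFBP3, the main carrier of IGFs in the circulation, had the largest difference in reads among these genes. Its normalized counts were 2709.4, 2806.0 and 2929.3 in Caki2+Vector and 9166.9, 9075.9 and 9065.2 in Caki2+PBRM1. Every Caki2+PBRM1 sample lay far above every Caki2+Vector sample, and the 3 were closely grouped. IGFBP3 rose 3.23-fold, from 2814.9 ± 110.2 to 9102.7 ± 55.9 (SD, n = 3 each). On the log2 scale this was 1.69 (SE 0.036, adjusted p = 2.08e-25), which ranked 71 from the top among the genes tested. The gene lies on the minus strand at chr7:45951844-45961473 (GRCh37).

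IGFBP1, a secreted IGF-binding protein made mainly by the liver, where insulin represses it, had few reads in Caki2+Vector and a low level in Caki2+PBRM1. Its normalized counts were 3.79, 7.56 and 1.20 in Caki2+Vector and 55.2, 55.1 and 57.1 in Caki2+PBRM1. The groups were far apart, but all of its Caki2+Vector signal came from 13 reads (4, 8 and 1), against 181 in Caki2+PBRM1 (51, 62 and 68). From the reads, IGFBP1 was 12.7-fold higher, with a 95% interval of 7.23 to 24.3 that covers counting error only. The fitted log2 fold change is given as a description, since the gene was tested only through the group where it is high, and was 3.66 with a pseudocount of 1, 3.86 with a pseudocount of 0.5 and 2.95 with 4. With a single Caki2+PBRM1 replicate left out the gene fell below the filter and had no value. IGFBP1 lies at chr7:45927959-45933259 on the plus strand, 18584 bp from IGFBP3, and both genes of this pair had higher values in Caki2+PBRM1.

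IGFBP7 and IGFBP4 rose by less. IGFBP7, a secreted protein of low affinity for IGFs that is found in vascular matrix, had normalized counts of 1740.0, 1755.4 and 1802.6 in Caki2+Vector and 2821.7, 2805.2 and 2730.2 in Caki2+PBRM1. This was a 1.58-fold rise (log2 fold change 0.66, SE 0.040, adjusted p = 8.55e-14). Its exons overlap those of POLR2B and IGFBP7-AS1 on the opposite strand, and since the strand setting of the counting is not given in the sources used here, their reads may not be told apart. IGFBP7-AS1 had 0 to 2.67 normalized counts, while those of POLR2B are not given here. IGFBP4, an inhibitor of IGF action that the protease PAPPA cleaves, had normalized counts of 1671.8, 1766.7 and 1775.1 in Caki2+Vector and 2359.2, 2264.7 and 2261.1 in Caki2+PBRM1. Both sets were tight and well separated, and IGFBP4 rose 1.32-fold (log2 fold change 0.40, SE 0.042, adjusted p = 9.34e-09). IGFBP7 lies at chr4:57896939-57976551 on the minus strand and IGFBP4 at chr17:38599702-38613977 on the plus strand (GRCh37).

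IGFBP6 and IGFBP2 did not share these rises. IGFBP6, which prefers IGF2 to IGF1, had normalized counts of 1264.8, 1336.8 and 1313.6 in Caki2+Vector and 1250.0, 1195.5 and 1235.4 in Caki2+PBRM1. All 3 of the latter were lower, but the log2 fold change of -0.09 (95% interval -0.18 to 0.005, adjusted p = 0.150) did not pass the test. IGFBP2, a binding protein that is often abundant in tumors, had normalized counts of 208.3, 279.7 and 292.4 in Caki2+Vector and 211.2, 223.1 and 203.9 in Caki2+PBRM1. Replicate A of Caki2+Vector, the library that stood apart, was as low as the Caki2+PBRM1 samples. The log2 fold change of IGFBP2 was -0.27 (SE 0.10, adjusted p = 0.0448) and its exact permutation p was 0.3. The call was lost with DESeq2 (adjusted p = 0.105) and in 5 of 6 fits that left out a replicate (adjusted p up to 0.214), whereas without Caki2+Vector replicate A the log2 fold change was -0.43 (adjusted p = 5.10e-05). Without that replicate IGFBP6 also passed, at -0.11 (adjusted p = 0.0384). IGFBP6 lies at chr12:53491220-53496129 and IGFBP2 at chr2:217497551-217529159, both on the plus strand (GRCh37).

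**Figure D2:**
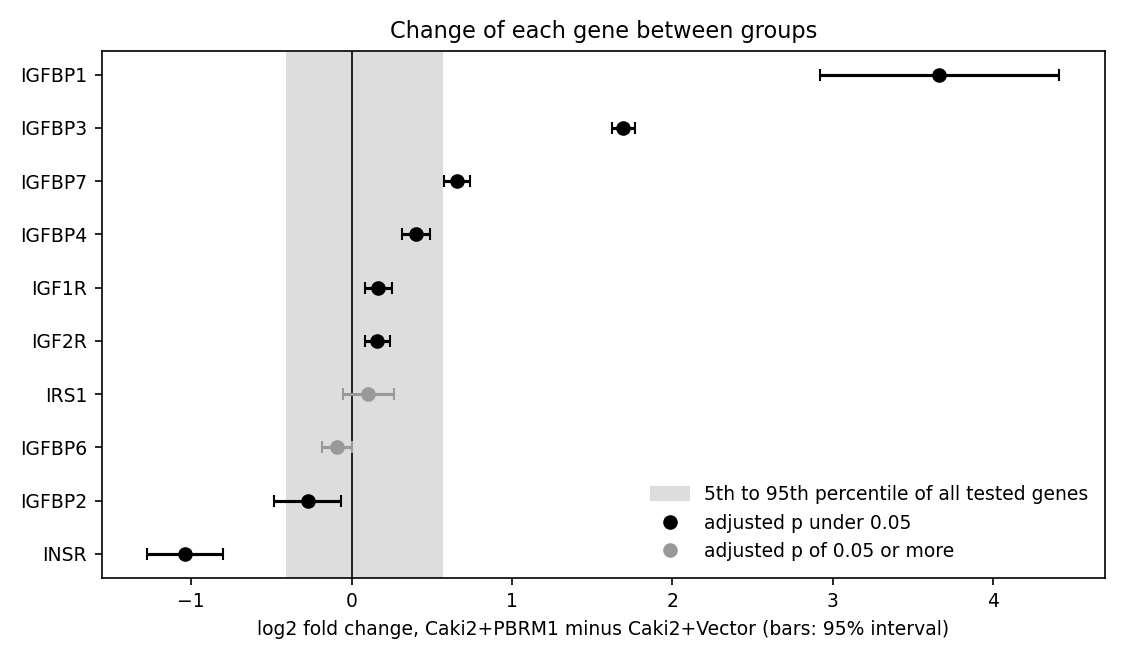
Log2 fold change (Caki2+PBRM1 minus Caki2+Vector) of each gene with its 95% interval from limma, on 3 samples per group. IGFBP1 and IGFBP3 lie to the right of the other genes and INSR lies to the left at -1.04, while the intervals of IGFBP6 and IRS1 include 0.

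Among receptors, INSR moved against the other 2. INSR, the insulin receptor, had normalized counts of 186.5, 207.8 and 166.6 in Caki2+Vector and 93.2, 101.3 and 78.1 in Caki2+PBRM1. Its lowest Caki2+Vector sample was well above its highest Caki2+PBRM1 sample, and mean values were 187.0 ± 20.6 and 90.8 ± 11.8 (SD, n = 3 each). INSR was thus lower at 0.488 of the Caki2+Vector level, or -1.04 on the log2 scale (SE 0.12, 95% interval -1.27 to -0.80, adjusted p = 3.69e-08). A log2 fold change beyond 1 in size with an adjusted p under 0.05 was reached by 2.28% of all genes tested. The value rested on 556 reads in Caki2+Vector and 293 in Caki2+PBRM1, and lay between -1.12 and -0.93 when a replicate was left out. INSR lies on the minus strand at chr19:7112266-7294425 (GRCh37). Of 37 tested genes within 1000000 bp of INSR 2 were higher, 1 was lower and 34 did not pass the test, where 29.2% of all genes passed.

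IGF1R and IGF2R both rose by a small amount. IGF1R, the kinase through which IGF1 and IGF2 signal, had normalized counts of 2076.1, 2168.2 and 2243.7 in Caki2+Vector and 2384.1, 2454.1 and 2445.7 in Caki2+PBRM1, a 1.12-fold rise (log2 fold change 0.17, SE 0.041, adjusted p = 0.00220). IGF2R, which clears IGF2 and sorts lysosomal enzymes, had 3050.2, 3204.7 and 2989.2 in Caki2+Vector and 3365.4, 3473.6 and 3498.2 in Caki2+PBRM1. The rise of IGF2R on the log2 scale was 0.16 (SE 0.038, adjusted p = 0.00175). For both receptors the gap between the groups was smaller than the range of the Caki2+Vector samples. IRS1, an adaptor that links IGF1R and INSR to PI3K, had 242.4, 248.5 and 240.9 in Caki2+Vector and 257.8, 265.8 and 262.7 in Caki2+PBRM1. These values did not overlap, but the log2 fold change of 0.10 (95% interval -0.06 to 0.26, adjusted p = 0.344) did not pass the test. IGF1R lies at chr15:99191768-99507759 (plus), IGF2R at chr6:160390114-160534539 (plus) and IRS1 at chr2:227596028-227664536 (minus) on GRCh37.

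To set binding proteins beside receptors, normalized counts were divided by the length of the union of exons of each gene (GENCODE, GRCh37), giving a level per kilobase. In Caki2+Vector the order was IGFBP6 (969.6 ± 27.3), IGFBP7 (915.0), IGFBP4 (788.2), IGFBP3 (616.1 ± 24.1), IGF1R (155.1 ± 6.0), IGF2R (136.3), IGFBP2 (54.9), IRS1 (24.3), INSR (17.3 ± 1.9) and IGFBP1 (2.55). In Caki2+PBRM1 IGFBP3 came first at 1992.3 ± 12.2, ahead of IGFBP7 (1443.4), IGFBP4 (1040.8) and IGFBP6 (911.6 ± 21.0), and IGFBP1 (34.0) passed IRS1 (26.2) and INSR (8.39 ± 1.1). No neighbours in either order overlapped over the 3 samples. The order does rest on the length used: with the longest transcript of each gene IGFBP7 came first in Caki2+Vector and IGFBP6 and IGFBP3 overlapped, and IGF2R stood above IGF1R. With the canonical transcript IGFBP2 reached 184.0 in Caki2+Vector and overlapped its neighbour IGF1R. Among 12090 tested genes with a length, IGFBP3 moved from percentile 96.5 to 99.3 of the level per kilobase, IGFBP1 from 3.66 to 39.1 and INSR from 24.9 to 13.5, while IGF1R was at 79.7 and 81.9.

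**Figure D3:**
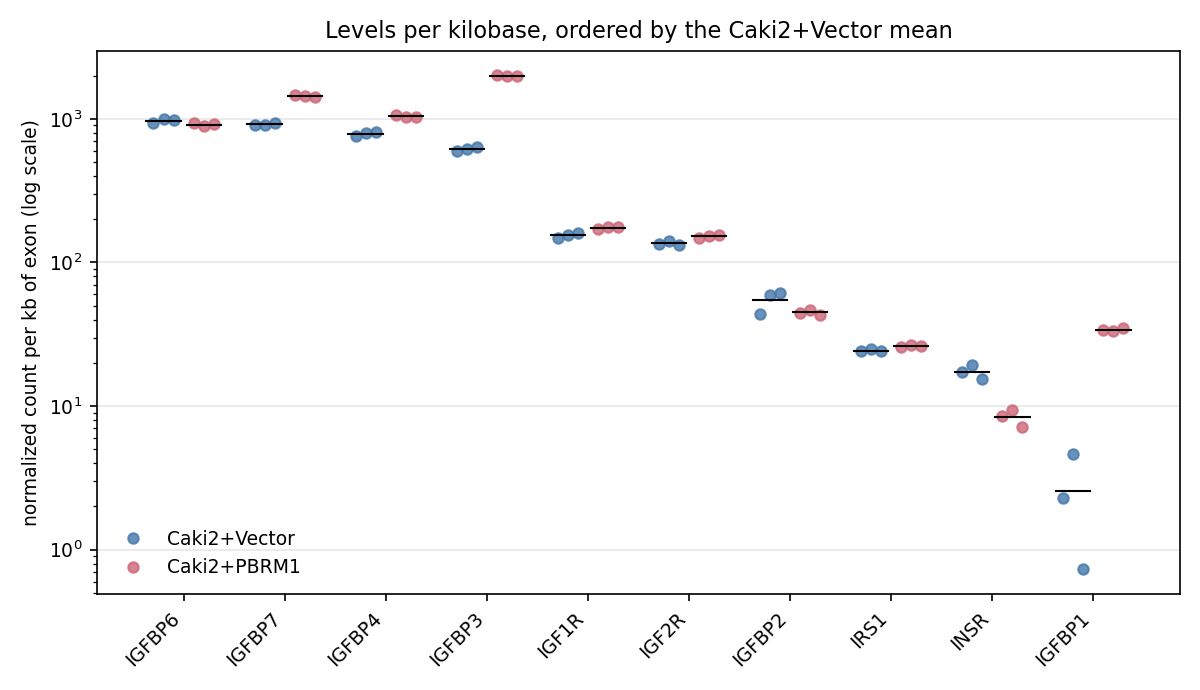
Normalized count per kilobase of exon (log scale) of the 10 genes in every sample, ordered by the mean in Caki2+Vector. IGFBP3 goes from 616.1 to 1992.3 and INSR from 17.3 to 8.39.

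The sum of the 6 binding proteins per kilobase was 3238.6, 3381.7 and 3418.5 in Caki2+Vector and 5545.1, 5435.7 and 5419.7 in Caki2+PBRM1, 1.63 times as high. Its make-up shifted towards IGFBP3, whose share went from 18.4% ± 0.31 to 36.4% ± 0.23, and away from IGFBP6, whose share went from 29.0% ± 0.41 to 16.7% ± 0.30. The share of IGFBP7 was 27.4% ± 0.47 and 26.4% ± 0.32. IGFBP4, though its level rose, went from 23.6% to 19.0% of the sum. IGFBP2 went from 1.63% to 0.82%, and IGFBP1 stayed under 1% of the sum in every sample. These shares rest on the length used. By the longest transcript IGFBP3 went from 25.1% to 45.7% and IGFBP7 from 29.0% to 25.8%. Without division by length IGFBP3 went from 35.7% to 58.1% and IGFBP7 from 22.4% to 17.8%.

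**Figure D4:**
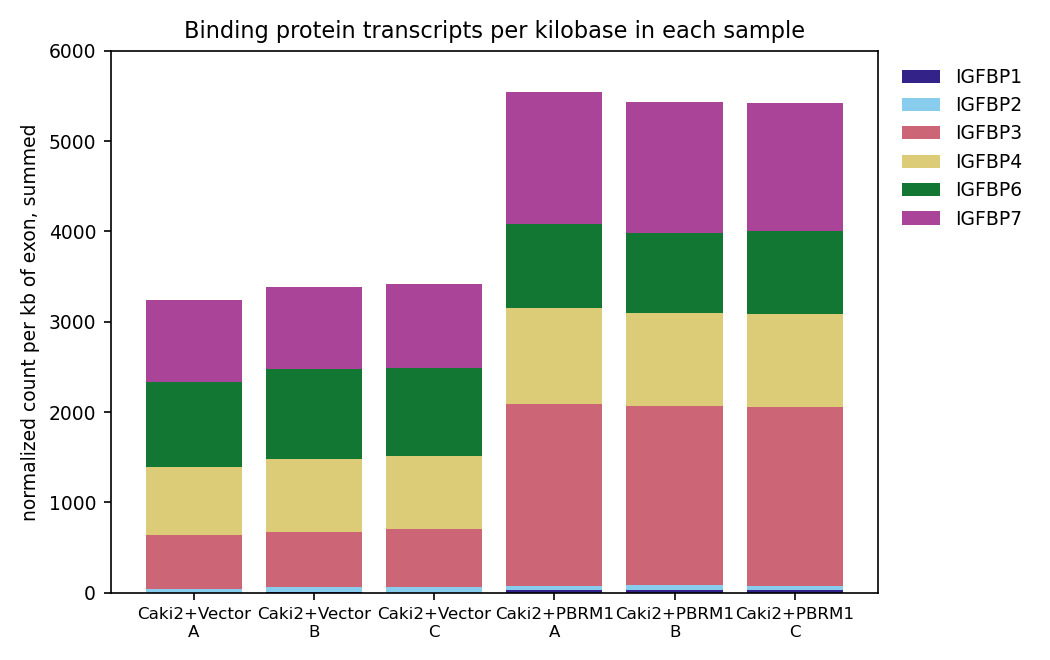
Level per kilobase of each of the 6 binding proteins, stacked in each of the 6 samples. The stacks are 3238.6 to 3418.5 high in Caki2+Vector and 5419.7 to 5545.1 high in Caki2+PBRM1, and the layer of IGFBP3 grows the most.

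Relative to IGF1R, the binding proteins together went from 21.6 ± 0.29 to 31.4 ± 0.89 per kilobase (21.7, 21.7 and 21.2 against 32.4, 30.9 and 30.9), 1.46 times as high. IGFBP3 carried most of this, since without it the ratio went from 17.6 ± 0.30 to 19.96 ± 0.64, 1.13 times as high. IGFBP3 over IGF1R was 3.97 ± 0.02 and 11.4 ± 0.25, and IGFBP6 over IGF1R was 6.25 ± 0.17 and 5.24 ± 0.19. The ratio of IGF1R to INSR was 8.65, 8.10 and 10.5 in Caki2+Vector and 19.9, 18.8 and 24.3 in Caki2+PBRM1, 2.32 times as high, with no overlap. IGF2R over IGF1R was 0.88 ± 0.05 and 0.87 ± 0.01 and the groups overlapped. These ratios compare transcripts and not the amounts of protein secreted or at the cell surface, and in bulk RNA fewer cells of a type and less RNA per cell cannot be told apart.

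The ligands were at or near 0 reads. IGF1 and INS had no read in any of the 6 samples, nor had INS-IGF2 or IRS4, where a floor of 3 reads is a normalized count of 2.52 to 3.60. IGF2, a fetal growth factor whose exons overlap INS-IGF2 and IGF2-AS, had 12 reads in Caki2+Vector and 7 in Caki2+PBRM1, a ratio of 0.531 with a 95% counting interval of 0.177 to 1.46. IGFBP5, which lies 7668 bp from IGFBP2 on the opposite strand, had 1, 2 and 2 reads in Caki2+Vector and 8, 12 and 9 in Caki2+PBRM1. It was below the filter, and the ratio of its reads, 5 against 29 in all, was 5.28 (95% counting interval 2.02 to 17.5). The insulin receptor relative INSRR had 4 and 3 reads in all. IRS2, the other main adaptor, had normalized counts of 1173.9, 1288.7 and 1325.6 in Caki2+Vector and 1325.8, 1361.7 and 1270.7 in Caki2+PBRM1, with a log2 fold change of 0.06 (adjusted p = 0.354). Per kilobase IRS2 was 6.36 and 6.18 times IRS1, and the groups overlapped. IGFBPL1, an IGFBP-like protein, had means of 73.4 and 60.9 (log2 fold change -0.26, adjusted p = 0.197).

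Of 71 other genes of the pathway, in 5 lists, 61 passed the filter. Of these, 16 were higher, 7 lower and 38 not past the threshold, where 16.2% of all genes were higher and 13.0% lower. Without SOCS2, whose mean in Caki2+PBRM1 was under the minimum of the filter, 16 of 60 were higher and 6 lower. The 23 called genes, SOCS2 included, became 13 with DESeq2 and 14 without Caki2+PBRM1 replicate B. The list of proteases and carriers of IGF-binding proteins had 9 of 13 genes tested, 6 higher and 1 lower, with a median log2 fold change of 0.38, against 16.2% and 13.0% of all genes. With DESeq2 5 were higher and 0 lower, and without Caki2+PBRM1 replicate B 5 were higher and 1 lower. STC1, a stanniocalcin that blocks the protease PAPPA, had normalized counts of 24.6, 32.1 and 27.6 in Caki2+Vector and 268.6, 317.3 and 277.0 in Caki2+PBRM1. STC1 thus rose 9.95-fold (log2 fold change 3.31, SE 0.13, adjusted p = 3.01e-18). Its relative STC2, also an inhibitor of PAPPA, rose from 2316.9 ± 105.8 to 3201.1 ± 104.4 (0.47 on the log2 scale, adjusted p = 3.53e-10). The matrix protease ADAMTS1 rose from 737.8 ± 56.7 to 1087.6 ± 59.3 (log2 fold change 0.56, adjusted p = 9.91e-09). PAPPA itself, which cleaves IGFBP4 and was singled out after its values were seen, had 84.6 ± 6.3 and 111.0 ± 13.3 (log2 fold change 0.38, adjusted p = 0.0205), a call that was lost without Caki2+PBRM1 replicate B (adjusted p = 0.153) and with DESeq2 (adjusted p = 0.105). STC1 over PAPPA per kilobase was 0.93 ± 0.06 in Caki2+Vector and 7.28 ± 0.20 in Caki2+PBRM1. That ratio leaves out STC2, whose normalized counts were far above those of STC1 in both groups, so it does not describe PAPPA inhibitors as a whole.

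Of 24 adaptors and brakes that act at the receptor, 3 were higher, 3 lower and 18 not past the threshold, with a median of 0.04. This was near the share of all genes, 16.2% higher and 13.0% lower. GRB10, an adaptor that binds INSR and IGF1R and inhibits their signal, rose from 709.0 ± 28.1 to 1286.5 ± 38.7 (0.86 on the log2 scale, SE 0.050, adjusted p = 4.51e-14). The docking protein GAB1 rose from 73.4 ± 10.1 to 153.7 ± 7.6 (1.06 on the log2 scale, SE 0.12, adjusted p = 5.25e-08). SOCS2, a suppressor of growth hormone signaling, had normalized counts of 20.8, 24.6 and 36.0 in Caki2+Vector and 6.50, 13.3 and 4.20 in Caki2+PBRM1, from 104 reads in all. SOCS2 passed the filter mainly through its Caki2+Vector samples, and its Caki2+PBRM1 mean of 8.01 was under the minimum. Its log2 fold change of -1.74 is therefore a description. Without it 3 of 23 adaptors and brakes were higher and 2 lower.

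The list of mannose 6-phosphate sorting and proreceptor processing had 2 of 9 genes higher and 1 lower (median 0.05). This was near the share of all genes, 16.2% higher and 13.0% lower. FURIN, a protease that cleaves the precursors of INSR and IGF1R, rose from 495.1 ± 45.1 to 726.8 ± 27.4 (log2 fold change 0.56, adjusted p = 6.61e-08), and its relative PCSK5 fell from 2631.6 ± 72.1 to 2268.7 ± 68.0 (log2 fold change -0.21, adjusted p = 1.32e-04). The sorting receptor SORT1 had means of 417.2 and 475.9 (log2 fold change 0.19, adjusted p = 0.0370, past the threshold in 10 of 15 alternatives).

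From PI3K to AKT and FOXO, 5 of 17 genes were higher and 2 lower, with a median of 0.09, beside 16.2% and 13.0% of all genes. These 7 became 2 with DESeq2 and 1 without Caki2+PBRM1 replicate B. PIK3R2, a regulatory subunit of PI3K, rose from 512.5 ± 61.0 to 672.3 ± 7.8 (log2 fold change 0.40, adjusted p = 5.96e-05). The catalytic subunit PIK3CA had means of 799.7 and 705.5 (log2 fold change -0.18, adjusted p = 0.0118, past the threshold in 13 of 15 alternatives).

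**Figure D5:**
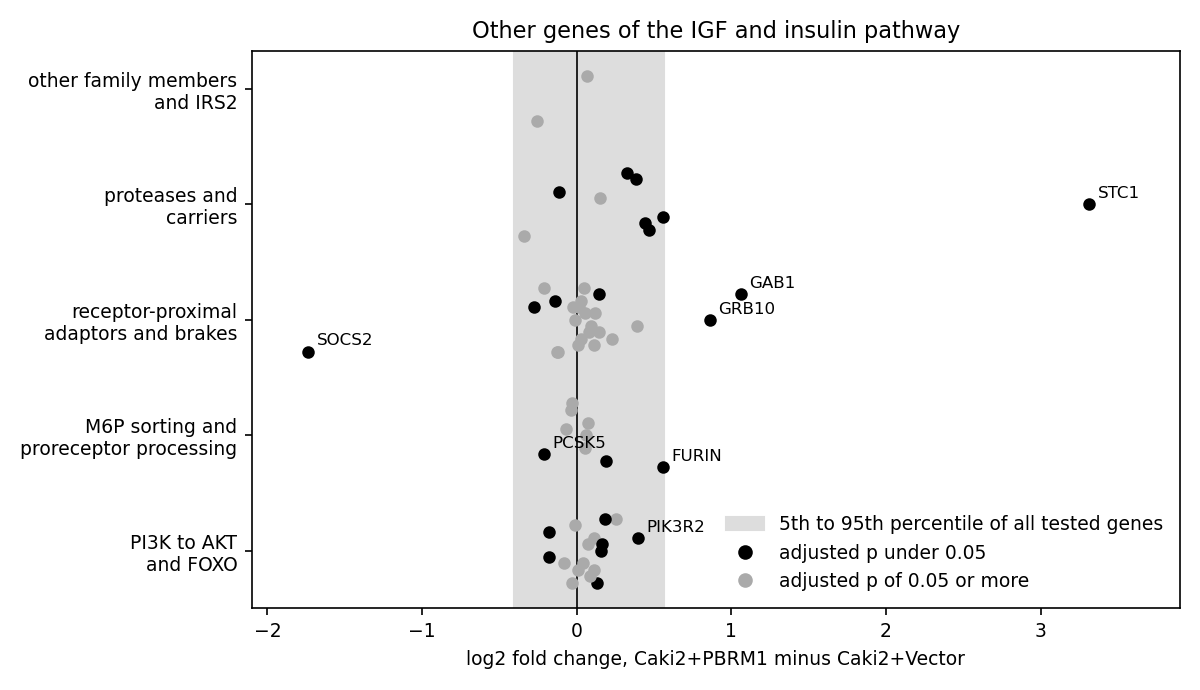
Log2 fold change (Caki2+PBRM1 minus Caki2+Vector) of the 61 tested genes of 5 pathway lists, black where the adjusted p was under 0.05 and grey otherwise. The grey band is the range from the 5th to the 95th percentile of all tested genes, -0.40 to 0.57, and STC1, GAB1, GRB10 and SOCS2 lie outside it.

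Around the pair of IGFBP1 and IGFBP3, 4 other genes within 1000000 bp were tested and 3 did not pass the test. The other one, SNHG15, a noncoding RNA named here after its values were seen, had a log2 fold change of -0.32 (adjusted p = 0.00949). Around IGFBP2 and IGFBP5, 1 of 7 was higher and 2 were lower, where 29.2% of all genes passed. The higher gene was LINC00607, also named after its values were seen. Its mean normalized count was 7.06 in Caki2+Vector, under the minimum of the filter, and 19.2 in Caki2+PBRM1. LINC00607 reached the filter through its Caki2+PBRM1 samples, so its call is a description.

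The genes whose profile over the 6 samples was most like that of IGFBP3, by Euclidean distance of mean-centred log2(normalized count + 1), were NEDD9 (0.205), PCDH20 (0.228) and MXRA5 (0.269). For IGFBP1 they were HHIP-AS1 (1.18), STC1 (1.36) and PBRM1 (1.39). For INSR, a search added after the data were seen gave LOC101927934 (0.245), APOC1 (0.249) and F2RL1 (0.289). All of these profiles were taken over the same 6 samples, and the distances are descriptions.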

How the data were processed

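RNA-seq of 3 Caki2+Vector and 3 Caki2+PBRM1 samples was used, grouped by the labels. The authors removed adapter, poor-quality and rRNA reads, aligned to hg19 with STAR, counted reads on 25369 UCSC genes with htseq-count and used DESeq2 for normalization. What the authors deposited is a normalized count signal: reads divided by a size factor per sample (0.834 to 1.191), with no division by length. Within each sample 100.0% of values were whole multiples of the value of 1 read (tolerance 0.02), so whole reads were recovered. Tool versions and the strand setting are not given in the sources used here.

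A filter (10 or more normalized counts in 3 or more samples) left 13303 genes, whose log2(normalized count + 1) was fitted with limma 3.58.1 in R 4.3.3 (trend, robust; fold changes are on this scale), with Benjamini-Hochberg adjustment over all of them. The alternatives were edgeR 4.0.16 and DESeq2 1.42.0 on recovered reads, pseudocounts of 0.5 and 4, other filters, TMM factors, quantile normalization, the replicate letter as a block and each replicate left out. Levels by canonical transcript and without length were added after seeing the data. On simulated data for this comparison (13280 genes) 191 of 200 genes with a log2 fold change of 1 were recovered, with 11 false calls among 202. The simulation gave all genes and samples the same spread beyond counting error and had no library that stood apart. Its rates therefore need not hold for the real samples.

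The 10 genes and the pathway lists were chosen with earlier results of these data known. All 10 are named, as are IGFBP5, the ligands, INSRR, IRS2 and IRS4. Of each other list, the text names the 3 genes with the largest change past the threshold and no overlap between groups (1 such gene is not reported here), and for IGFBP3 and IGFBP1 the 3 genes of the most similar profile. Protein sequence was not used here. No paired design was assumed: deviations of samples sharing a letter had correlations from -0.008 to 0.014, within those of different letters (-0.024 to 0.017). Intervals on reads cover counting error only.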

Additional observations from a re-analysis of the deposited data

How the results depend on the processing

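Over the 10 genes, 146 log2 fold changes were computed under the alternatives. Of these, 138 kept their direction and side of the threshold and 6 (all IGFBP2) lost the call. Another 2 (IGFBP6, under quantile normalization and without Caki2+Vector replicate A) gained it, and 0 changed direction. The 138 include 11 of IGFBP1, whose test could only find a difference, so those 11 are descriptions. The number of the 10 genes past the threshold, IGFBP1 included, was 8, and 7 with DESeq2, where IGFBP2 was lost. Without IGFBP1 the main fit had 7 of 9. With a Caki2+Vector replicate left out, 7 to 9 of 10 passed. With a Caki2+PBRM1 replicate left out, 6 of 9 passed, where IGFBP1 was not tested and IGFBP2 was lost. IGFBP1 had no value when a Caki2+PBRM1 replicate was left out or when 10 was required in every sample, since too few samples then reached the filter.

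Over all genes, 3886 passed the threshold, 3975 with edgeR and 2517 with DESeq2 (1484 higher and 1033 lower). Leaving out a replicate gave 2798 to 4154. The pathway lists, SOCS2 included, had 23 genes past the threshold and 13 with DESeq2. They had 14 to 23 when a replicate was left out, the lowest without Caki2+PBRM1 replicate B. The cause of the lower counts with DESeq2 was not tested. The ratio of binding proteins to IGF1R per kilobase was 1.46 times as high in Caki2+PBRM1, and 1.43 to 1.47 when a replicate was left out. It was 1.58 by the longest transcript, 1.52 by the canonical transcript and 1.77 without division by length. The length changes only the weight of each gene in the sum, and IGFBP3 over IGF1R was 2.88 times as high under each. Without IGFBP3 the ratio was 1.13 times as high by the union of exons. It was 1.15 by the longest transcript, 1.11 by the canonical transcript and 1.15 without division by length.

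With the replicate block, 4107 genes in all, 8 of the 10 genes (IGFBP1 included) and 23 of the pathway genes (SOCS2 included) passed the threshold. No call on the 10 genes changed. Same-letter samples did not deviate together, and 1 of 3 Caki2+Vector samples correlated best with its own letter. A typical gene had an SE of 0.083 on the log2 scale (median), and IGFBP5 and the ligands were below the filter. With no filter IGFBP5 had a log2 fold change of 1.89 (limma, adjusted p = 7.71e-04) and IGF2 one of -0.48 (adjusted p = 0.559), while IGF1 and INS had no reads. The value of IGFBP5 rested on 5 reads in Caki2+Vector and 29 in Caki2+PBRM1, near the floor.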
